A study of Mus musculus with 11 samples.

Results

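The complement genes examined here were 8 of the 21860 genes in the expression table: *C1qa*, *C1qb* and *C1qc*, *C3*, *Cfb* and *Cfp*, and the receptors *C3ar1* and *C5ar1*. They were taken by gene symbol, each had a single entry in the table, and all 8 passed the filter on low values. Bulk RNA sequencing had been carried out on 11 samples. Each held EpCAM+ cells with low CD11b that had been sorted from mouse bone marrow monocyte cultures driven toward monocyte-derived Langerhans cells (mLCs). The cultures asked how a Notch ligand and an aryl hydrocarbon receptor (Ahr) ligand act alongside other signals of the skin.

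GM-CSF (20 ng/ml) was present in all cultures, which were harvested at day 6. The group called TGFβ/IL-34 had in addition 5 ng/ml TGFβ together with 8 μg/ml IL-34 (n = 2). To these 3 cytokines were added FICZ (TGFβ/IL-34/FICZ, n = 2), Jag1 (TGFβ/IL-34/Jag1, n = 3) or both (TGFβ/IL-34/Jag1/FICZ, n = 3). A single sample, called Jag1 only, had GM-CSF and Jag1 without TGFβ or IL-34. FICZ is a tryptophan-derived Ahr ligand, called an agonist in the study and an antagonist in the series' design text. Jag1, a Notch ligand, was presented by OP9 stroma cells made to express it. The labels give OP9 co-culture for every sample, whereas the sample descriptions set apart "Jag" and "Mo" cultures. Nothing in the labels says that replicates came from separate animals, so p-values measure the spread between these samples.

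Normalized counts, which were already scaled for depth, summed to 21.3 to 27.8 M in each of the 11 samples. Depth was estimated at 20.6 to 24.2 M reads. Of the 12 OP9 stroma markers listed, *Dcn* and *Lum* were at 0 in all samples. The summed level of the 11 markers other than *Thy1*, a gene left out after its values were seen because it was high with FICZ with or without stroma, was 12.8 to 38.0 in the cultures without Jag1 and 391 to 4642 in those with it. Jag1 and the stroma that carried it therefore cannot be told apart in any comparison of cultures with and without Jag1. The Langerhans cell label was checked with *Epcam*, at 657 in Jag1 only and 3952 to 14377 elsewhere, and with *Cd207* (langerin), at 1366 to 1784 in TGFβ/IL-34/Jag1, 154 to 157 in TGFβ/IL-34 and 6.21 to 132 in the other 6 samples.

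Complement is a protein cascade that tags surfaces for uptake, recruits leukocytes and can lyse membranes. Its classical pathway starts with C1q, a bundle of subunits made from the A, B and C chains, and its alternative pathway amplifies deposition of C3 through factor B and properdin. Cleavage of C3 and C5 frees the anaphylatoxins C3a and C5a, which act through the receptors C3aR1 and C5aR1 on myeloid cells. Macrophages are the main source of C1q in many tissues, and properdin is made largely by leukocytes.

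The promoters of 3 of these genes are shown because the B and C chains of C1q moved together and because properdin moved against them with Jag1. RefSeq windows (build GRCm38.p6, 250 bases before the transcription start and 50 from it on) were found for 6 of the 8 genes. *C1qa* and *Cfb* had no entry. Capitals mark matches, on either strand, to the cores GAGGAA (PU.1, a myeloid lineage factor) and GCGTG (Ahr). Sequences run 5′ to 3′ along the gene.
C1qb promoter, chr4:136886151-136886450, minus strand: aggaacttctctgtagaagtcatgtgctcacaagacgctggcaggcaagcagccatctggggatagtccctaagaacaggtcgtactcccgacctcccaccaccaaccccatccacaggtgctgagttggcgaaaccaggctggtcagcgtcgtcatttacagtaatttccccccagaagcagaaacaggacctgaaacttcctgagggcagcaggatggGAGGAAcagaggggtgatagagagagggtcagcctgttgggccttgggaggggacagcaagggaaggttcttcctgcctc
C1qc promoter, chr4:136892865-136893164, minus strand: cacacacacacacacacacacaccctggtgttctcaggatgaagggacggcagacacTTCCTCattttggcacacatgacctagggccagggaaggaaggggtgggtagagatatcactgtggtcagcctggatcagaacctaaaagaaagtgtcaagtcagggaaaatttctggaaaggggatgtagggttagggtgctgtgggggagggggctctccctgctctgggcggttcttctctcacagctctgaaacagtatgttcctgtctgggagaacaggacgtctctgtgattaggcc
Cfp promoter, chrX:20931506-20931805, minus strand: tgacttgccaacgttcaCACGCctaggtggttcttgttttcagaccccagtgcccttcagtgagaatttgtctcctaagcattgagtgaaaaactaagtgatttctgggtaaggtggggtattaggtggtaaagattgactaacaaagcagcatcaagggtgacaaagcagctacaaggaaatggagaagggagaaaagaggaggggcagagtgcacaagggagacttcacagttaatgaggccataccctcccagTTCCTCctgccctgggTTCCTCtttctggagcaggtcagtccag
The window of *C1qb* held a PU.1 core at bases 221 to 226, and that of *C1qc* held a PU.1 core at bases 58 to 63. *Cfp* was the only gene of these 6 with an Ahr core, at bases 18 to 22, and it also held a pair of PU.1 cores from bases 257 and 273. These short letters are common: of 32851 windows, 28.3% held GAGGAA and 32.4% GCGTG. The RBPJ core TGGGAA, of the factor through which Notch acts, was in 25.6% of all windows and in none of the 6. No overlap between motifs occurred in the 3 windows shown. A match is only a description of these letters.

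In the comparison called Jag1 without FICZ, TGFβ/IL-34/Jag1 was set against cultures with the cytokines alone. In FICZ with Jag1, cultures with both agents were set against TGFβ/IL-34/Jag1. In the first, the 3 C1q chains rose and *C5ar1* and *Cfp* fell. In the second, the C1q chains fell while *C5ar1* and *Cfb* rose. Both comparisons share the TGFβ/IL-34/Jag1 samples. Genes were tested on log2(normalized count + 1) with limma across 13095 genes, and called at an adjusted p below 0.05.

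Of the 8 genes, 5 were called for Jag1 without FICZ, against a background of 6.6% of all genes tested. The 3 that rose stand beside 2.64% of genes called higher and the 2 that fell beside 3.96% called lower. For FICZ with Jag1, 5 were also called, 2 higher and 3 lower, where 17.7% of all genes were called, 10.9% higher and 6.71% lower. The median log2 fold change over the 8 genes was -0.47 for Jag1 without FICZ and -0.40 for FICZ with Jag1, beside medians of -0.004 and -0.008 over all genes tested, since members moved both ways. Less RNA per cell and fewer cells of a type cannot be told apart in these bulk samples.

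**Figure D1:**
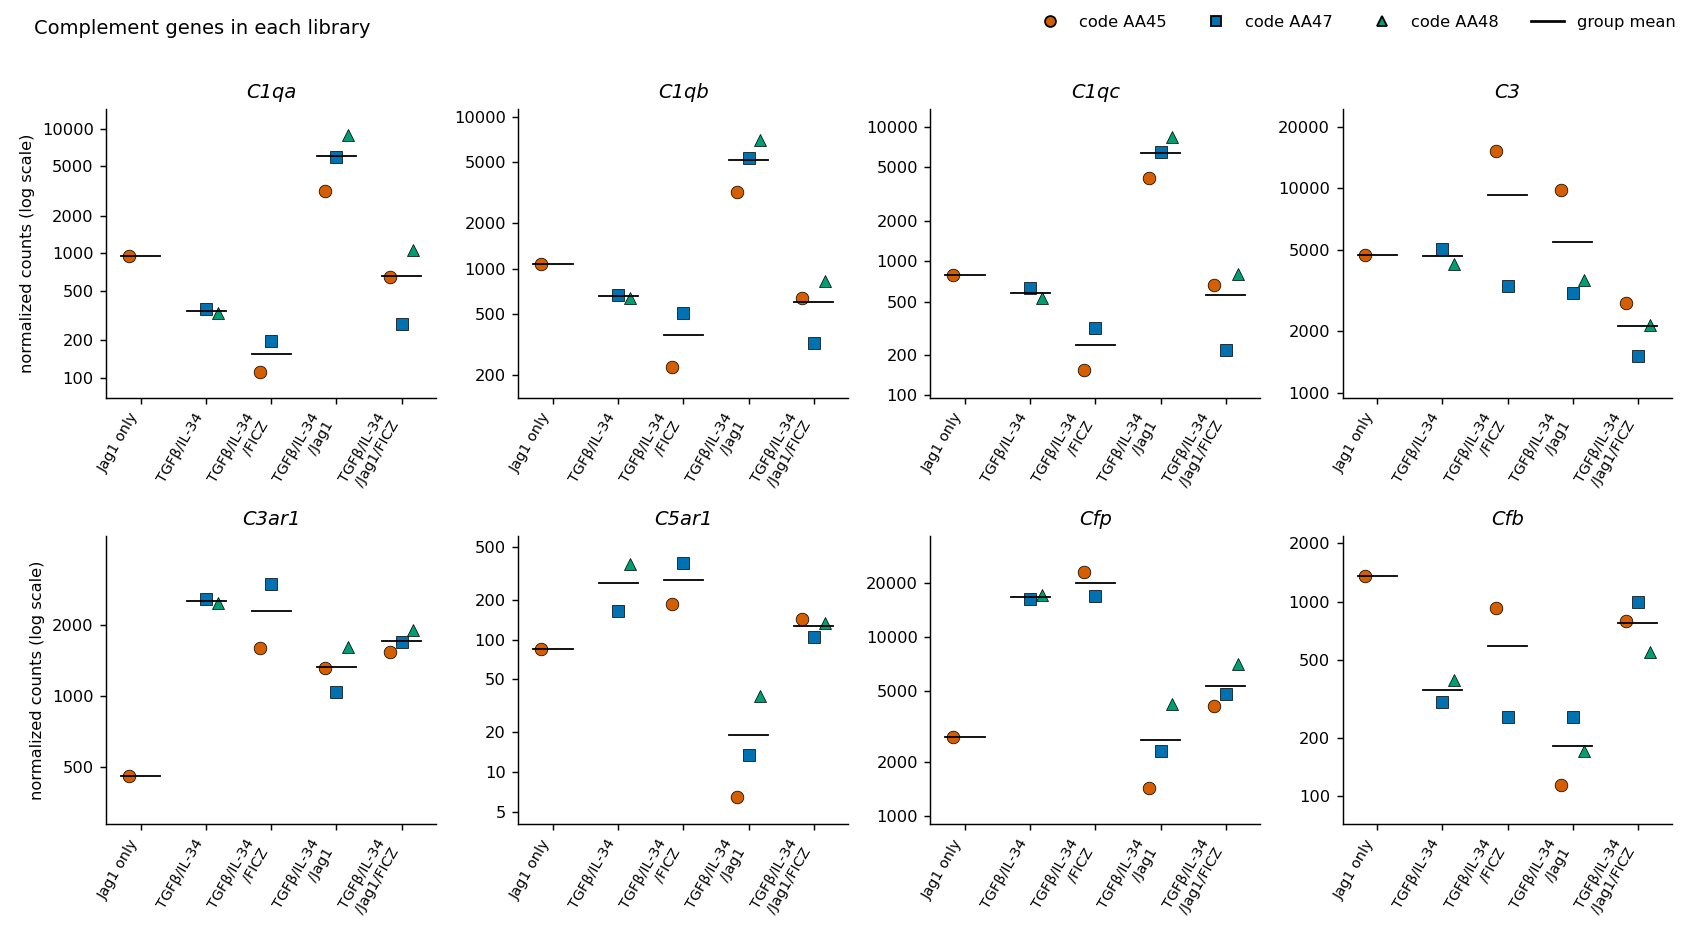
Normalized counts (log scale, with a separate range in each panel) of the 8 complement genes in each of the 11 libraries, by culture group. Symbols mark the code in the sample description (AA45, AA47 or AA48) and lines the group means. The C1q chains are highest in the 3 TGFβ/IL-34/Jag1 libraries, where *C5ar1* is lowest.

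The A chain of C1q is encoded by *C1qa* (ENSMUSG00000036887, chr4:136623223-136626161 in GRCm39, minus strand). Its normalized counts were 353 and 330 in TGFβ/IL-34, 110 and 198 in TGFβ/IL-34/FICZ, 3135, 5958 and 8988 in TGFβ/IL-34/Jag1, and 641, 270 and 1062 in TGFβ/IL-34/Jag1/FICZ. The single Jag1 only sample had 944. The 3 TGFβ/IL-34/Jag1 samples were above all others, and both FICZ samples without Jag1 were below all others. *C1qa* rose 16.1-fold with Jag1 without FICZ (log2 fold change 4.01, SE 0.56, limma adjusted p = 0.00249) and fell 9.68-fold when FICZ was added to Jag1 (-3.28, SE 0.50, adjusted p = 0.00143).

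*C1qb* (ENSMUSG00000036905, chr4:136606009-136613511) encodes the B chain. It was at 670 and 641 in TGFβ/IL-34, 226 and 508 in TGFβ/IL-34/FICZ, 3174, 5342 and 6996 in TGFβ/IL-34/Jag1, and 642, 324 and 831 in TGFβ/IL-34/Jag1/FICZ, with 1078 in Jag1 only. The TGFβ/IL-34/Jag1 samples again stood above the rest, whereas the TGFβ/IL-34 range lay inside that of TGFβ/IL-34/Jag1/FICZ. *C1qb* rose 7.49-fold with Jag1 without FICZ (log2 2.90, SE 0.46, limma adjusted p = 0.00464, or 0.0631 once replicate 2 of the TGFβ/IL-34 group was left out) and fell 8.81-fold with FICZ added to Jag1 (-3.14, SE 0.41, adjusted p = 0.000623).

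*C1qc* (ENSMUSG00000036896, chr4:136616466-136620376) encodes the C chain. It was at 626 and 529 in TGFβ/IL-34, 154 and 319 in TGFβ/IL-34/FICZ, 4155, 6479 and 8463 in TGFβ/IL-34/Jag1, and 663, 217 and 806 in TGFβ/IL-34/Jag1/FICZ, with 792 in Jag1 only. Its TGFβ/IL-34 and TGFβ/IL-34/Jag1/FICZ ranges overlapped. The rise with Jag1 without FICZ was 10.6-fold (log2 3.41, SE 0.53, limma adjusted p = 0.00428, or 0.0638 once replicate 2 of the TGFβ/IL-34 group was left out) and the fall with FICZ added to Jag1 was 12.5-fold (-3.64, SE 0.48, adjusted p = 0.00061).

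The 3 chains lie next to each other on chromosome 4, and their profiles were close. After each gene was centred on its mean over the 11 samples, the root mean square difference in log2 values was 0.58 between *C1qa* and *C1qb*, 0.42 between *C1qa* and *C1qc* and 0.36 between *C1qb* and *C1qc*. The ratios between chains still differed by group. The log2 ratio of *C1qb* to *C1qa* was 0.92 to 1.36 in the 4 samples without Jag1 and -0.36 to 0.26 in the 7 with it, and the ranges did not overlap. The log2 ratio of *C1qc* to *C1qa* was 0.48 to 0.83 without Jag1 and -0.40 to 0.41 with it. Per kilobase of transcript, *C1qa* made up 32.8% to 37.0% of the summed C1q level without Jag1 and 45.2% to 56.1% with it. The size of these shares depends on the length used, that of 1 canonical transcript per gene. These ratios were looked at after the levels were seen and were not tested.

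**Figure D2:**
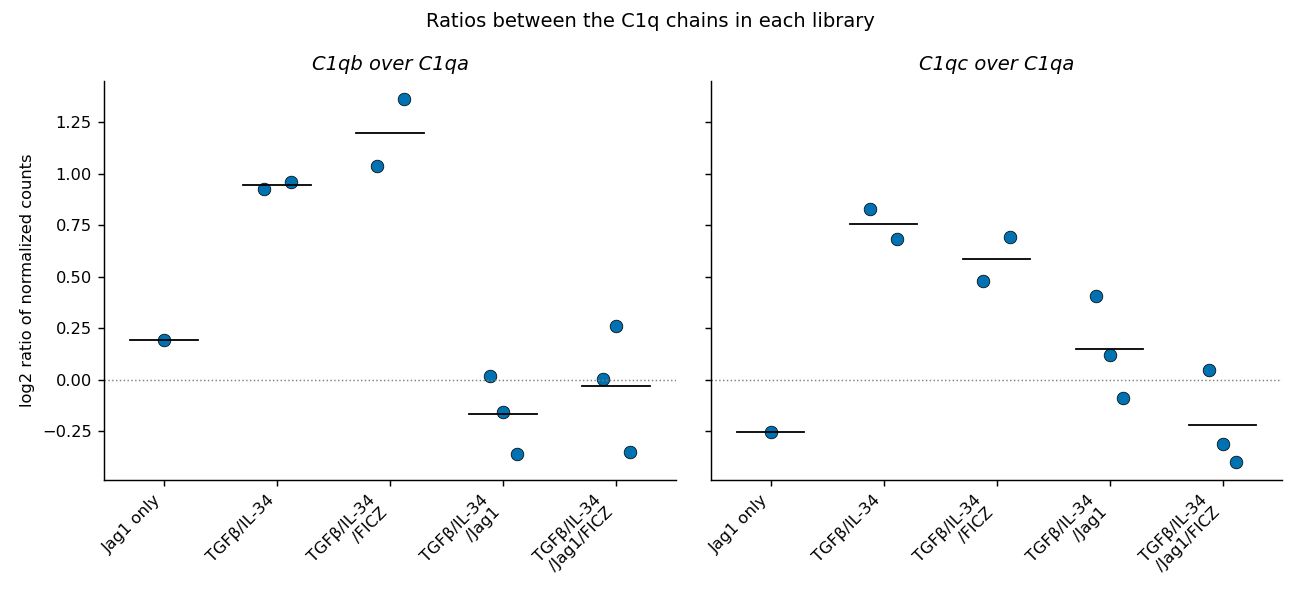
Log2 ratios of normalized counts of *C1qb* over *C1qa* (left) and *C1qc* over *C1qa* (right) in each library, by culture group, with group means as lines. All 4 libraries without Jag1 lie above every library with Jag1 in both panels.

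The genes whose profile over the 11 samples was nearest to a C1q chain were found among 13077 genes with a symbol. They were *Gprc5c*, *Kremen2* and *Lrrc32* for *C1qa* (root mean square log2 differences 0.58, 0.62 and 0.64), *Cd300c2* and *Maml2* for *C1qb* (0.44 and 0.50) and *Plpp1*, *Kremen2* and *Cd300c2* for *C1qc* (0.48, 0.50 and 0.55). The summed level of 7 macrophage markers ranged from 20812 to 41398 in TGFβ/IL-34/Jag1, from 39638 to 40492 in TGFβ/IL-34 and from 13291 to 20681 in TGFβ/IL-34/Jag1/FICZ. Most of these sums came from *Adgre1* and *Csf1r*. *Mertk* was at 81.6 and 114 in TGFβ/IL-34, 439 to 620 in TGFβ/IL-34/Jag1 and 83.7 to 95.1 in TGFβ/IL-34/Jag1/FICZ. *Fcgr1*, *Cd68* and *Mrc1* were instead lower in TGFβ/IL-34/Jag1 than in TGFβ/IL-34. For FICZ with Jag1, 3 of the 7 markers were called lower and 1 higher, and for Jag1 without FICZ 1 was called higher and 3 lower. Their part in the C1q result was not tested.

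*C3* (ENSMUSG00000024164, chr17:57510964-57535155, minus strand) encodes the component on which the pathways meet. Its normalized counts were 5062 and 4284 in TGFβ/IL-34, 15306 and 3338 in TGFβ/IL-34/FICZ, 9783, 3058 and 3542 in TGFβ/IL-34/Jag1, and 2746, 1510 and 2133 in TGFβ/IL-34/Jag1/FICZ, with 4747 in Jag1 only. The 3 samples given both Jag1 and FICZ were the lowest of the 11. In each of the 3 groups that held a sample with the description code AA45 and another, the AA45 sample was the highest. What the code stands for is not stated.

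*C3* did not pass the test for Jag1 without FICZ (log2 fold change 0.02, SE 0.62, limma adjusted p = 0.993) or for FICZ with Jag1 (-1.19, SE 0.56, adjusted p = 0.182). Replicate numbers paired the samples of the second comparison, which also share description codes. There the limma adjusted p was 0.0497 with the replicate block and 0.0194 with the description code as a block. It was 0.0238 with the file code and 0.0374 with the flow cell as a block. Within codes the log2 difference was -1.83 for AA45, -1.02 for AA47 and -0.73 for AA48, lower in 3 of 3 pairs. Its nearest profiles were those of *Blvrb* (0.36), *Maged1* (0.41) and *Hps4* (0.42).

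*Cfb* (ENSMUSG00000090231, chr17:35074852-35081559, minus strand) encodes factor B, the protease subunit of the alternative pathway convertase. It was at 304 and 397 in TGFβ/IL-34, 922 and 255 in TGFβ/IL-34/FICZ, 115, 257 and 171 in TGFβ/IL-34/Jag1, and 798, 992 and 550 in TGFβ/IL-34/Jag1/FICZ. Jag1 only had 1360, the highest of the 11 samples. The ranges of the Jag1 samples with and without FICZ did not overlap.

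*Cfb* rose 4.40-fold when FICZ was added to Jag1 (log2 2.14, SE 0.46, limma adjusted p = 0.00903), and was higher in 3 of 3 pairs by description code (2.78, 1.94 and 1.68). For Jag1 without FICZ its log2 fold change was -1.01 (SE 0.51, adjusted p = 0.336). The gene overlaps *Nelfe* on the opposite strand, which was at 1514 to 3622, and a read-through gene, Gm20547, at 0 in 10 of 11 samples. Whether counting used strand is not stated, so reads of *Cfb* and *Nelfe* could not be separated with certainty. *Nelfe* was at 2045, 2311 and 2411 in TGFβ/IL-34/Jag1 and lower in TGFβ/IL-34/Jag1/FICZ, at 1650, 1641 and 1814. The part of its reads in the *Cfb* values was not tested. Between the Jag1 groups without and with FICZ the summed stroma markers other than *Thy1* went from 391 to 1058 up to 738 to 4642, and their part in the *Cfb* result was not tested. The nearest profiles were those of *Fgd5* (0.43), *Epb41l1* (0.44) and *Irf1* (0.44), the last an interferon-induced transcription factor that was also highest in Jag1 only, at 10106.

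*Cfp* (ENSMUSG00000001128, chrX:20791688-20797794, minus strand) encodes properdin, which stabilises that convertase. It was at 16391 and 17221 in TGFβ/IL-34, 23056 and 16924 in TGFβ/IL-34/FICZ, 1437, 2312 and 4252 in TGFβ/IL-34/Jag1, and 4135, 4801 and 7038 in TGFβ/IL-34/Jag1/FICZ, with 2754 in Jag1 only. All 4 samples without Jag1 were above all 7 with it. The ranges with and without FICZ overlapped among the Jag1 samples.

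*Cfp* fell 6.95-fold with Jag1 without FICZ (log2 -2.80, SE 0.39, limma adjusted p = 0.00253) and 3.81-fold with Jag1 in the presence of FICZ (-1.93, SE 0.39, adjusted p = 0.0369). It was the only one of the 8 genes called for Jag1 with FICZ, the comparison of the FICZ cultures that had Jag1 with those that did not, where 2.02% of all genes were called. It was also the only one called for both agents together, compared with the cytokines alone (-1.69, SE 0.39, adjusted p = 0.0392), with a background of 4.48%. The former call was lost when any library of its groups except replicate 2 of TGFβ/IL-34/FICZ was left out, and the latter when any library was, with adjusted p up to 0.689 and 0.248 over all alternatives. For FICZ with Jag1 the log2 fold change was 1.10 (SE 0.35, adjusted p = 0.0546, and 0.0121 with the replicate block). The nearest profiles were those of *B430306N03Rik* (0.30), *Usp18* (0.39) and *Dpep2* (0.43).

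*C3ar1* (ENSMUSG00000040552, chr6:122823393-122833122, minus strand) encodes the receptor for C3a. Its normalized counts were 2581 and 2480 in TGFβ/IL-34, 1599 and 3003 in TGFβ/IL-34/FICZ, 1318, 1044 and 1618 in TGFβ/IL-34/Jag1, and 1545, 1690 and 1911 in TGFβ/IL-34/Jag1/FICZ. Jag1 only was the lowest sample, at 455. Of the 8 genes *C3ar1* varied least over the 11 samples (SD of log2 values 0.74, against 2.06 for *C1qa*).

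*C3ar1* was called in none of the 6 comparisons by limma, with an unadjusted p below 0.05 in 1 of them. For Jag1 without FICZ the groups did not overlap and the log2 fold change was -0.95 (95% interval -1.55 to -0.35, limma adjusted p = 0.0664). For FICZ with Jag1 it was 0.39 (-0.15 to 0.92, adjusted p = 0.331). The call depended on the fit. *C3ar1* was called for Jag1 without FICZ with only the compared groups (limma adjusted p = 0.0257), when blocked by flow cell (0.0318) and with array weights (0.000906). With array weights it was also called for FICZ with Jag1 (0.0398). For both agents together it was called with only the compared groups (0.0073) or array weights (0.00912). Array weights and the fit of only the compared groups also called more of all genes. Jag1 without FICZ went from 864 genes to 1303 with only the compared groups and 2627 with array weights. With array weights FICZ with Jag1 went from 2312 to 4123. Both agents together went from 587 to 3053 with only the compared groups and 3558 with array weights. The *C3ar1* profile was nearest to those of *Nfam1* (0.21), *Adgre1* (0.22) and *Hepacam2* (0.22). *Adgre1*, which encodes the macrophage antigen F4/80, was at 16018 ± 976 in TGFβ/IL-34 (SD, n = 2) and 7364 ± 1218 in TGFβ/IL-34/Jag1 (SD, n = 3).

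*C5ar1* (ENSMUSG00000049130, chr7:15980668-15993465, minus strand) encodes the receptor for C5a, a chemotactic receptor of phagocytes. It was at 165 and 373 in TGFβ/IL-34, 185 and 381 in TGFβ/IL-34/FICZ, 6.42, 13.4 and 37.7 in TGFβ/IL-34/Jag1, and 143, 104 and 134 in TGFβ/IL-34/Jag1/FICZ, with 85.3 in Jag1 only. The 3 TGFβ/IL-34/Jag1 samples were below all others and rested on an estimated 5.65, 12.9 and 38.3 reads. The other 8 samples had 82.3 to 426.

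*C5ar1* fell 15.5-fold with Jag1 without FICZ (log2 -3.96, SE 0.64, limma adjusted p = 0.00541, or 0.0937 once replicate 2 of the TGFβ/IL-34 group was left out) and rose 7.90-fold when FICZ was added to Jag1 (2.98, SE 0.58, adjusted p = 0.00525). Neutrophils also carry this receptor. The summed level of the 9 granulocyte markers was 202 to 338 in TGFβ/IL-34/Jag1, 5998 to 9002 in TGFβ/IL-34/Jag1/FICZ, 339 to 1395 in TGFβ/IL-34 and 2654 to 4698 in TGFβ/IL-34/FICZ. For FICZ with Jag1, 6 of the 8 granulocyte markers tested were called higher, and *Ly6g*, which defines neutrophils, was at 0 in 10 of the 11 samples. The exception was replicate 2 of TGFβ/IL-34, at 11.4, where *C5ar1* was at 373 against 165 in replicate 1. The 6 mast cell markers summed to 1099 to 2399 in TGFβ/IL-34/Jag1 and 4155 to 5840 in TGFβ/IL-34/Jag1/FICZ. *Cpa3* was at 95.4 to 152 in the former and 1984 to 4053 in the latter. *Kit* overlapped, at 945 to 2302 and 1725 to 2272. *Fcer1a* was at 0 in all samples and *Mcpt4* never above 3.13. Only 3 of the 6 were tested, and 2 of them were called higher for FICZ with Jag1. The part of such cells in the *C5ar1* result was not tested. The nearest profiles were those of *Klhl3* (0.60), *Itgb7* (0.61) and *Acsbg1* (0.66).

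**Figure D3:**
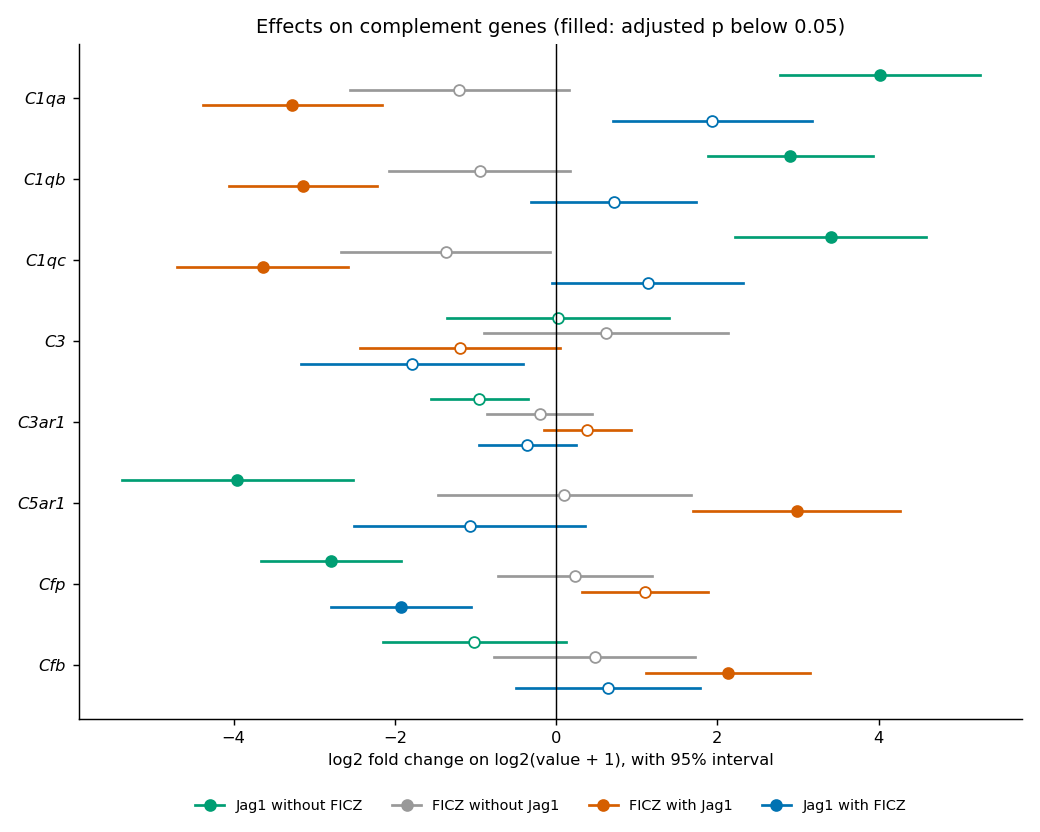
Log2 fold changes of the 8 complement genes on log2(normalized count + 1), with 95% intervals from limma, in 4 comparisons. Filled points have an adjusted p below 0.05, as the C1q chains and *C5ar1* do for Jag1 without FICZ and, with the opposite sign, for FICZ with Jag1.

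FICZ without Jag1, in which FICZ was the only addition to the cytokines, called none of the 8 genes by limma, with an unadjusted p below 0.05 for 1 of them, *C1qc* (log2 fold change -1.37, SE 0.58, adjusted p = 0.285). Only 0.0229% of all genes were called. The C1q chains were lower in both FICZ samples than in both TGFβ/IL-34 samples, with log2 fold changes of -1.20 for *C1qa* (95% interval -2.56 to 0.16) and -0.95 for *C1qb* (-2.07 to 0.17). The FICZ samples lay far apart: the *C3* level was 15306 in replicate 1 and 3338 in replicate 2. These replicates also differed in description code and in the flow cell read from the sample descriptions. Only 2 of the 11 libraries were on the flow cell of replicate 1. The other was replicate 1 of TGFβ/IL-34/Jag1/FICZ, so that flow cell held FICZ libraries alone. When replicate 2 was left out, so that replicate 1 stood alone and was assumed to vary like the other groups, 5 of the 8 were called, with adjusted p of 0.0448 for *C1qb*, 0.0459 for *C1qc*, 0.0421 for *C3*, 0.0466 for *C3ar1* and 0.0338 for *Cfb*, and 43.9% of all genes tested were called.

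The interaction tested the FICZ effect in the presence of Jag1 against that in its absence. None of the 8 genes passed it with limma, although 1.39% of all genes did and the unadjusted p was below 0.05 for 5 of the 8. The difference in log2 fold change was -2.07 for *C1qa* (SE 0.79, adjusted p = 0.214), -2.19 for *C1qb* (SE 0.65, adjusted p = 0.14), -2.27 for *C1qc* (SE 0.75, adjusted p = 0.171), 2.88 for *C5ar1* (SE 0.91, adjusted p = 0.156) and 1.66 for *Cfb* (SE 0.72, adjusted p = 0.256). Without replicate 2 of TGFβ/IL-34/FICZ, *C3* (adjusted p = 0.0104), *C3ar1* (0.0157) and *C5ar1* (0.0242) passed, and so did 42.1% of all genes tested.

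Levels of different genes can be set side by side per kilobase of transcript. The length used was that of 1 canonical transcript per gene, 1.09 kb for *C1qa*, 1.85 for *C1qc* and 2.53 for *C1qb*. Any order on this scale depends on these lengths. On that scale *Cfp* was the highest of the 8 in TGFβ/IL-34, with a mean normalized count per kilobase of 10241 ± 358 against 906 ± 107 for *C3* (SD, n = 2), and also in TGFβ/IL-34/FICZ. In TGFβ/IL-34/Jag1 the order was led by *C1qa*, at 5545 ± 2693, then *C1qc* at 3437 ± 1164, *C1qb* at 2042 ± 757 and *Cfp* at 1625 ± 878 (SD, n = 3). Neighbours in this order lay within their spread. Within each of the 3 samples *C1qa* was above *C1qc* per kilobase, at 2884, 5481 and 8269 against 2244, 3499 and 4570. Before division by length, the log2 ratio of *C1qc* to *C1qa* in this group was -0.09 to 0.41, so their order depends on the lengths. In TGFβ/IL-34/Jag1/FICZ *Cfp* led again at 3245 ± 927, followed by *C1qa* at 605 ± 364 and *C3* at 413 ± 120, the last 2 within their spread. *C5ar1* was the lowest in TGFβ/IL-34/Jag1, at 7.54 ± 6.45, and in TGFβ/IL-34/Jag1/FICZ, at 49.9 ± 7.98.

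Of 50 other complement genes listed, 49 were in the table, 24 passed the filter on low values and 12 were at 0 in all samples. The remaining 13 stayed at or below 16.7. For Jag1 without FICZ, *Cd93* and *Itgb2* were called lower and none higher, and for FICZ with Jag1, *Cd55*, *Cd93*, *Fcnb* and *Itgb2* were called higher and none lower. These 2 and 4 genes are 8.33% and 16.7% of the 24, beside 6.6% and 17.7% of all genes tested. Of the 7 tested genes of the classical and lectin pathway only *Fcnb* (ficolin-B) was called, and none of the 3 of the terminal pathway. For both agents together *Cd55* was called higher and *Itgb2* lower. The *Itgb2* call (limma adjusted p = 0.0445) was lost under 9 of 15 alternatives, namely each of the 4 blocks (adjusted p of 0.0727 to 0.0915) and leaving out any of the 5 libraries (up to 0.365). The *Cd55* call was lost when replicate 1 (0.0756) or 2 (0.063) of TGFβ/IL-34/Jag1/FICZ, or either replicate of TGFβ/IL-34 (0.153 and 0.125), was left out. FICZ without Jag1 and Jag1 with FICZ called none of the 24 by limma, with 4 and 4 at an unadjusted p below 0.05.

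*Cd93*, a C-type lectin receptor first described as a C1q receptor, was at 845 and 964 in TGFβ/IL-34, 948 and 1637 in TGFβ/IL-34/FICZ, 53.5, 55.2 and 35.2 in TGFβ/IL-34/Jag1, and 1802, 1361 and 1421 in TGFβ/IL-34/Jag1/FICZ. The TGFβ/IL-34/Jag1 samples were the lowest of all, where the C1q chains were highest. *Cd93* fell with Jag1 without FICZ (log2 -4.23, SE 0.29, limma adjusted p = 4.95e-05) and rose with FICZ added (4.98, SE 0.26, adjusted p = 3.14e-06). *Itgb2*, the beta chain of complement receptors 3 and 4, fell 3.03-fold with Jag1 (-1.60, SE 0.16, adjusted p = 0.000448) and rose 1.89-fold with FICZ added (0.92, SE 0.15, adjusted p = 0.00184), while its partners *Itgam* and *Itgax* were called in neither.

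*Cd55*, which speeds the decay of convertases, was at 1.94, 7.10 and 0 in TGFβ/IL-34/Jag1 and at 345, 161 and 126 in TGFβ/IL-34/Jag1/FICZ (log2 6.07, SE 0.71, limma adjusted p = 0.000336). *Fcnb* was at 0, 0 and 0.931 in the former and 27.2, 19.7 and 23.5 in the latter (4.29, SE 0.96, adjusted p = 0.0112), and its low counts make the size uncertain. *Cfd*, whose protease activates factor B, and *Cfi*, whose protease inactivates C3b, were never above 0.946, less than the 2.69 to 3.45 that 3 reads are worth. *Hc*, which encodes C5, the source of C5a, was at 2.70 to 210 and was called in no comparison (lowest limma adjusted p = 0.106).

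**Figure D4:**
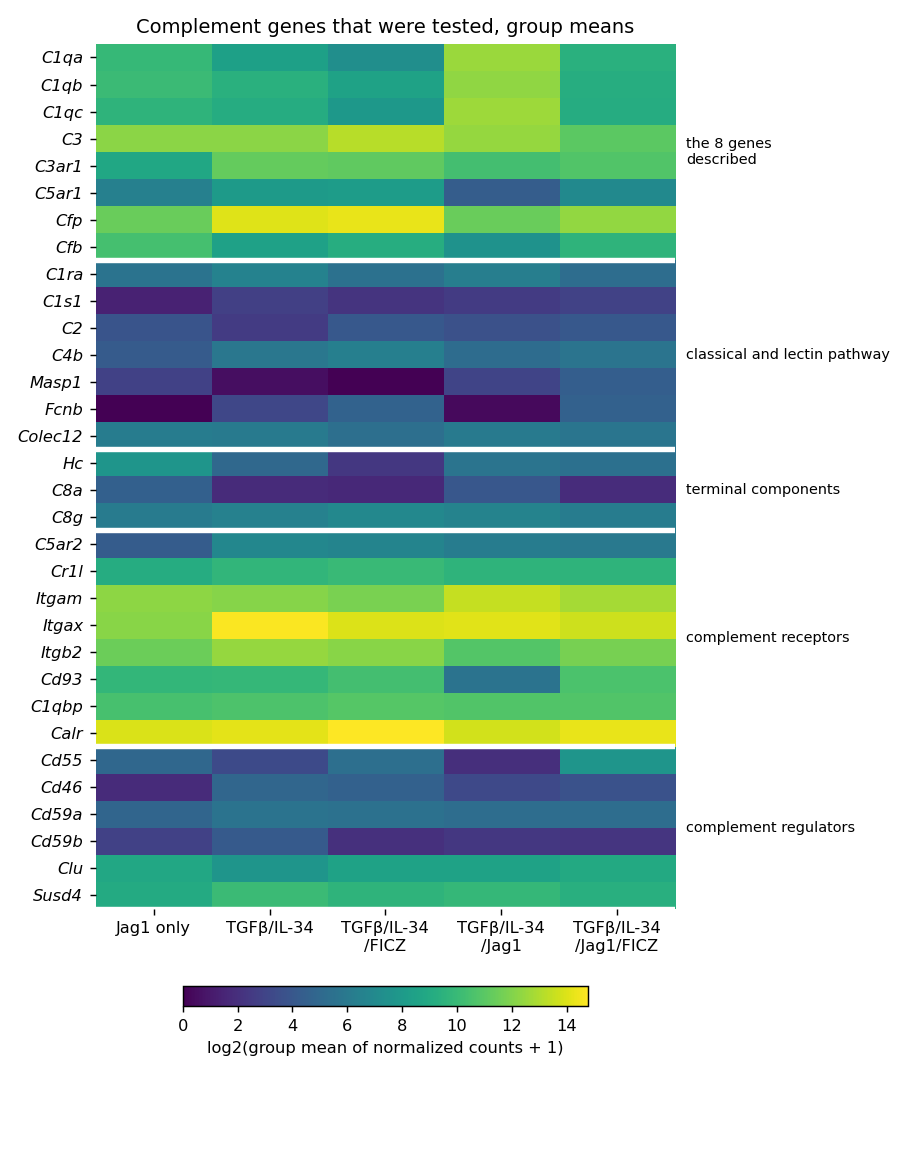
Group means of normalized counts, as log2(mean + 1), for the 8 complement genes and the 24 other complement genes that passed the filter, by culture group (1 to 3 libraries each). *Cd93* and *Cd55* are lowest in TGFβ/IL-34/Jag1.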

How the data were processed

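Sorted cells of 11 cultures in 5 groups were sequenced, and groups were taken from the sample labels. The authors quantified reads with salmon against GRCm39 and scaled genes with DESeq2. The deposited values are a normalized signal per gene (normalized counts), not raw counts, and tool versions and strandedness are not stated in the sources used here. A further deposited file held other annotations per sample. Its conditions were those of the labels for 11 of 11 samples, and its experiment codes those of the sample descriptions for 10. The exception was replicate 1 of TGFβ/IL-34, with AA47 in the description and AA45 in that file.

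Low values (above 0 and under 15) were whole multiples of 1 step (0.895 to 1.15 normalized counts, taken as 1 read), within 0.1 of a step, in 79.9% to 98.2% of cases for genes with 1 annotated transcript but in 52.0% to 58.0% over all genes, so reads were not recovered and no count model was run. An estimated 20.6 to 24.2 M reads per sample set the counting error, which weighs most on low genes. The 13095 genes reaching 10 normalized counts in 2 or more samples were fitted as log2(value + 1) with limma 3.58.1 in R 4.3.3 (trended prior, 1 mean per group, all 11 samples, no covariate, 6 residual degrees of freedom). Adding 1 understates changes of low genes. Two-sided p-values were adjusted by Benjamini-Hochberg over all genes tested, separately for each comparison. The fit was also run on simulated data with known changes, where noise was independent between libraries. That simulation held no effect of code or flow cell, so it cannot show how the fit handles them. Lengths of canonical transcripts and coordinates came from GENCODE vM39 (GRCm39), matched for 21676 genes.

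Replicate numbers were taken to pair samples only for FICZ with Jag1, where deviations from the group means of same-numbered samples correlated at 0.153, 0.122 and 0.166 and description codes matched. Description codes also matched for Jag1 with FICZ, where these correlations were lower, at 0.059 and 0.058. The genes, lists and rules were chosen with earlier results of these data known. From the pathway lists up to 4 called genes in each direction per comparison were named, and for each of the 8 genes the 3 nearest profiles. Some genes and a motif of these lists are not reported here. Alternatives were other pseudocounts, no filter, quantile normalization, only the compared groups, 4 blocks, array weights and leaving out each replicate.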

Additional observations from a re-analysis of the deposited data

Results flagged for a closer look

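The effect of FICZ on *Cd93* differed between cultures with and without Jag1 by 4.52 on the log2 scale (SE 0.41, limma interaction adjusted p = 0.00174), being 4.98 with Jag1 and 0.46 without. For *Itgb2* the difference was 1.20 (SE 0.23, adjusted p = 0.043), from 0.92 with Jag1 and -0.28 without, and 13 of 20 alternative settings took it past the threshold, with adjusted p up to 0.216. No other complement gene passed the test of this difference.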

How the results depend on the processing

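With FICZ added to Jag1, the 5 calls held under all 16 alternatives, with 5 to 6 of the 8 genes called when a replicate was left out and 7 with the replicate block. For Jag1 without FICZ, *C1qb*, *C1qc* and *C5ar1* lost their calls without replicate 2 of TGFβ/IL-34, which left 1 sample in that group. Their log2 fold changes were then 2.87, 3.29 and -3.37, and fewer of all genes were called as well. FICZ without Jag1 gave 0 to 5 calls when a replicate was left out, 5 when its FICZ replicate 2 was dropped. Without that library Jag1 with FICZ called 3 of the 8 (range 0 to 3) and the interaction 3 (range 0 to 3), but these 3 comparisons then called 43.9%, 44.6% and 42.1% of all genes tested. For both agents together, 0 were called without a filter, when blocked by flow cell and without any of the 5 replicates (range 0 to 0), 4 with only the compared groups or with array weights, and 2 with the description code as a block. Over all genes, both agents together called 3053 with only the compared groups and 3558 with array weights, beside 587 in the main fit. Jag1 with FICZ called 8 of all genes with only the compared groups and 0 with array weights, beside 264. Of the 8 complement genes it called 0 without a filter, with only the compared groups or with array weights, and 2 with the file code as a block. The replicate block left the count for each comparison other than FICZ with Jag1 at that without it, including 5 for Jag1 without FICZ. The cause of these changes was not tested.

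The sign turned for values that were not called. For *C3* with Jag1 without FICZ the log2 fold change was -0.056 with quantile normalization, -0.43 with the description code as a block, -0.22 with array weights, and -0.50 to 0.38 when a replicate was left out. For FICZ without Jag1 it was -0.11 for *Cfp* with quantile normalization, and -0.028 for *C3* and 0.050 for *C3ar1* when blocked by flow cell. Leaving out a replicate there gave -0.48 to 1.72 for *C3*, -0.66 to 0.25 for *C3ar1*, -0.45 to 1.41 for *Cfb* and -0.49 to 0.68 for *C5ar1*, and *C5ar1* was also negative, at -0.42, when FICZ replicate 2 was dropped. The joint effect ranged from -0.52 to 0.16 for *C1qb* and from -0.60 to 0.34 for *C1qc*, positive when replicate 2 of the cultures with both agents was dropped. The effect of Jag1 with FICZ ranged from -0.81 to 0.10 for *C3ar1* and from -0.28 to 1.57 for *Cfb*.

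Counts of all genes called were 864 for Jag1 without FICZ (195 to 2627 over the alternatives), 3 for FICZ without Jag1 (0 to 5734), 587 for both (35 to 3558), 2312 for FICZ with Jag1 (1389 to 4123), 264 for Jag1 with FICZ (0 to 5827) and 182 for the interaction (8 to 5497). For FICZ without Jag1 several settings gave a count of 0. They had from 527 genes (only the compared groups) to 2786 (file code as a block) at an unadjusted limma p below 0.05. For Jag1 with FICZ the count of 0, with array weights, stands beside 913 such genes. Counting error limits *C5ar1* in TGFβ/IL-34/Jag1 and *Fcnb*.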
